A study of Mus musculus with 6 samples.

Results

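The sterol regulatory element-binding proteins (SREBPs) and the proteins that hold, cut and release them were followed in the liver of pregnant mice through 8 genes: *Srebf1*, *Srebf2*, *Scap*, *Insig1*, *Insig2*, *Mbtps1*, *Mbtps2* and *Mylip*. The genes were taken as a list of names, and all 8 were found among the 56691 genes of the deposited table. Liver RNA of 6 dams was sequenced, 3 in the group KPF (replicates 1 to 3) and 3 in the group WPF (replicates 2 to 4). KPF dams were h*Chrebp* KO mice, that is *Chrebp* flox/flox mice with 1 copy of a Cre driven by the albumin promoter, so that the gene of the carbohydrate response element-binding protein (ChREBP) was to be deleted in hepatocytes and not in other liver cells. WPF dams carried the same floxed alleles without Cre, and their genotype is given as WT in the sample labels. Both groups were pregnant, had been mated with *Chrebp* flox/flox males and received a high-fructose diet (HFrD) after mating until late pregnancy, so that pregnancy and fructose were shared by all 6 libraries and the groups differed by design in the Cre allele. The ages of the dams were not given in the sources used here.

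SREBPs are made as membrane proteins of the endoplasmic reticulum (ER). SCAP, encoded by *Scap*, escorts them to the Golgi in COPII vesicles when sterols are low, and INSIG proteins, encoded by *Insig1* and *Insig2*, bind SCAP and keep the complex in the ER when sterols are high. In the Golgi the site-1 protease (*Mbtps1*) and the site-2 protease (*Mbtps2*) release the transcription factor, which enters the nucleus. In liver, SREBP-1c from *Srebf1* is known for driving fatty acid synthesis genes together with ChREBP, SREBP-2 from *Srebf2* drives cholesterol synthesis genes, and *Insig1* is itself a target of SREBPs. MYLIP, also called IDOL, is a ubiquitin ligase that marks receptors of the low-density lipoprotein (LDL) receptor family for degradation, and its gene is a target of the liver X receptors (LXRs), as *Srebf1* is.

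The libraries held 10694496 to 14496630 counted reads, with all KPF libraries below all WPF libraries, and the factors of edgeR's TMM normalisation lay between 0.888 and 1.18. *Mlxipl*, the gene of ChREBP, measured 182, 709 and 860 CPM (read counts scaled by the normalised library size) in KPF, against 974, 1277 and 891 CPM in WPF. Here and below, values are in the order of the replicate numbers, 1 to 3 for KPF and 2 to 4 for WPF. The groups did not overlap, but KPF replicate 3 was near WPF replicate 4, and *Mlxipl* was not called (-0.84 ± 0.53, log2 ± standard error, adjusted p = 0.584 in edgeR's test). Its reads were not split between the deleted exon and the rest of the gene, so that they do not show the deletion itself. Of the marker lists of other cells, the 6 striated muscle genes had a summed level of 1987 FPKM (read counts scaled by exon length and library size) in KPF replicate 2 and of 3.98 to 6.63 FPKM in the other 5 libraries. The 10 stellate cell and fibroblast genes summed to 56.0, 152 and 21.9 FPKM in KPF and to 14.1, 20.6 and 22 FPKM in WPF, and 129 FPKM of the sum in KPF replicate 2 were *Des*, which muscle also expresses. Of the 8 tested genes of this list 4 were called higher in KPF and 0 lower by the rule given below, against 634 higher among all 10866 tested genes. These were *Col1a1*, *Col3a1*, *Des* and *Reln*. Without KPF replicate 2 they stayed called, and *Dcn* was called as well. The 10 hepatocyte genes summed to 38498 to 45677 FPKM in KPF and to 53059 to 73054 FPKM in WPF. Most of this sum was *Alb*, and the median log2 fold change of the 10 was 0.0051, with 1 gene, *Pck1*, called higher and 0 called lower by the rule given below. *Pck1* gave 270, 1744 and 326 CPM in KPF, compared with 201, 131 and 318 CPM in WPF. It lost the call without KPF replicate 2, where *Ttr* was called lower, and without WPF replicate 2 or 3. With library totals in place of TMM, *Alb* and *Ttr* were called lower and no gene of the list higher. The summed levels of the 10 Kupffer cell and macrophage genes, the 10 sinusoidal endothelial genes and the 7 cholangiocyte genes overlapped between the groups. The endothelial gene *Pecam1* was called higher in KPF. Without overlap and without a call, *Fcgr2b* was higher and *Cd5l* and *Stab2* lower in KPF. *Sox9*, with 18 to 31 reads per library, was also higher without overlap, but lay below the minimum for testing given below. Of all tested genes, 7.54% were higher and 8.14% lower in KPF without overlap. Of the 7 adipocyte genes *Lep* was at 0 in all libraries while the list summed to 3.64 to 30.7 FPKM in KPF and 2.26 to 2.74 FPKM in WPF. Its 2 tested genes, *Cfd* and *Fabp4*, were called higher. *Fabp4* lost the call without KPF replicate 1 or 2 and without WPF replicate 3 or 4, whereas *Cfd* kept it. The part of these cells in the values below was not tested, and fewer cells of a type and less RNA per cell cannot be told apart in such bulk samples.

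Positions are those of the deposited table, on GRCm39 by the submitters' processing notes. *Srebf1* (chromosome 11, 60089915 to 60113407, minus strand) overlaps the oppositely directed *Rai1*, with 103 to 279 reads per library, over 109 bases. *Gm37174*, with 8 to 20 reads, lies opposite *Insig2*, and reads from opposite strands cannot be told apart where a kit does not mark strand. *Insig1* lies on chromosome 5 (28276361 to 28283660, plus strand), *Insig2* on chromosome 1 (121232082 to 121260318, minus strand), *Srebf2* on chromosome 15 (82031382 to 82089580, plus strand) and *Scap* on chromosome 9 (110162356 to 110214018, plus strand). *Mbtps1* lies on chromosome 8 (120234895 to 120285474, minus strand), *Mbtps2* on X (156318367 to 156381711, minus strand) and *Mylip* on chromosome 13 (45543218 to 45565498, plus strand). The values are sums over the exons of each gene, so that SREBP-1a and SREBP-1c, which start at different promoters of *Srebf1*, were not separated.

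The DNA before the start sites of 4 of these genes is shown because SREBPs are known to act on genes of their own pathway through such sites. The sequences are from RefSeq on GRCm38.p6, a different build from that of the counts, and hold the 250 bases before an annotated start in the direction of transcription. All 8 genes matched, with 13 start sites in total. Capitals mark TCACCC (or GGGTGA on the other strand), which is the first part of the sterol regulatory element, CCAAT (or ATTGG), the box of the SREBP partner NF-Y, and the E-box CACGTG, to which SREBP-1 and ChREBP can bind.
*Srebf1*, chr11:60210472-60210721, minus strand: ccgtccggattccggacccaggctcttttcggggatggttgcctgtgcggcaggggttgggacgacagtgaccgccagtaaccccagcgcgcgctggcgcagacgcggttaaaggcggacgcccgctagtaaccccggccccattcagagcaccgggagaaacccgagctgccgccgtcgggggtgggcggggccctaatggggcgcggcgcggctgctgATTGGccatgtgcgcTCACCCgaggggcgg
*Srebf2*, chr15:82147019-82147268, plus strand: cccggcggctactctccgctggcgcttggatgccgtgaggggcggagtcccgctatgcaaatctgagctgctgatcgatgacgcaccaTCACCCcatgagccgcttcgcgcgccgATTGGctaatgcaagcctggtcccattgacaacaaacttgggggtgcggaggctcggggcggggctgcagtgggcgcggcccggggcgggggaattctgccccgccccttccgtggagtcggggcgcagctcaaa
*Insig1*, chr5:28071162-28071411, plus strand: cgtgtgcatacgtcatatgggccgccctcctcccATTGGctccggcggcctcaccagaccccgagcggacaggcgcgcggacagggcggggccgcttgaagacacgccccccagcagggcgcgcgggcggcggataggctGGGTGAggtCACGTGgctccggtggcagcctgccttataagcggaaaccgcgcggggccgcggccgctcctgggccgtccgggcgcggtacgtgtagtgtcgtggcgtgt
*Insig2*, chr1:121332590-121332839, minus strand: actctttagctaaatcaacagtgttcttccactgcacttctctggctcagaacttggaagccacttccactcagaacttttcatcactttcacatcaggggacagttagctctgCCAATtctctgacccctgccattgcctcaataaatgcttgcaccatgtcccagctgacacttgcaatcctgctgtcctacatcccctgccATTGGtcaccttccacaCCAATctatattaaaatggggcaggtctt

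The longer letters of the sterol regulatory element, TCACNCCAC, occurred on either strand in 0 of the 13 windows, and in 1.05% of the 32851 promoter windows of RefSeq cut in the same way. TCACCC, a shorter form that overlaps it and was chosen after these windows had been read, occurred in 5 of 13, against 13.8% of all windows. These 5 belonged to 4 genes, 1 window each of *Srebf1*, *Srebf2* and *Insig1* and 2 of the 3 windows of *Insig2*. *Srebf1* has further windows that lack TCACCC, and the window shown is the one that holds it. In *Srebf1* the element began 15 bases before the start, and an NF-Y box began 30 bases before the start. In *Srebf2* the corresponding distances were 162 and 135 bases. CACGTG occurred in 2 of 13 windows, at 101 bases before the start of *Insig1* and in 1 window of *Scap*, and in 6.02% of all windows. The *Insig2* window shown held 3 NF-Y boxes and neither TCACCC nor CACGTG. NF-Y boxes occurred in 6 of 13 windows (33.8% of all windows) and the GC box GGGCGG in 9 of 13 (32.7%). A match of letters is a description of the window and says nothing of binding in these livers.

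The comparison of KPF with WPF asked how the RNA of this machinery differed between dams with and without the Cre that deletes *Chrebp* in hepatocytes. *Insig1*, *Insig2* and *Srebf1* had the lower means in KPF, by 1.81-fold, 2.24-fold and 2.05-fold of the WPF over the KPF mean, *Scap* was lower by less, and *Srebf2*, *Mbtps1*, *Mbtps2* and *Mylip* were close in both groups. A gene was called when edgeR's quasi-likelihood test gave an unadjusted p under 0.05 and the change was at least 1.5-fold. Of the 8 genes 6 passed the minimum mean of 1 FPKM for testing, and 1 of these 6, *Insig1*, was called, whereas 1066 of all 10866 tested genes were called (9.81%), 432 of them lower in KPF (3.98%). KPF and WPF did not overlap, with KPF lower, for 2 of the 6, *Insig1* and *Srebf1*, against 8.14% of all tested genes, and with KPF higher for 0 of the 6, against 7.54%. The median log2 fold change of the 6 was -0.65, and that of all tested genes was 0.02. After Benjamini-Hochberg adjustment edgeR's test left 0 of the 10866 genes past 0.05 (0%, with 1176 past it unadjusted), so none of the differences below passed correction over all genes. DESeq2 gave 156 genes and limma on log2(FPKM + 1) gave 0 at an adjusted p under 0.05.

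**Figure D1:**
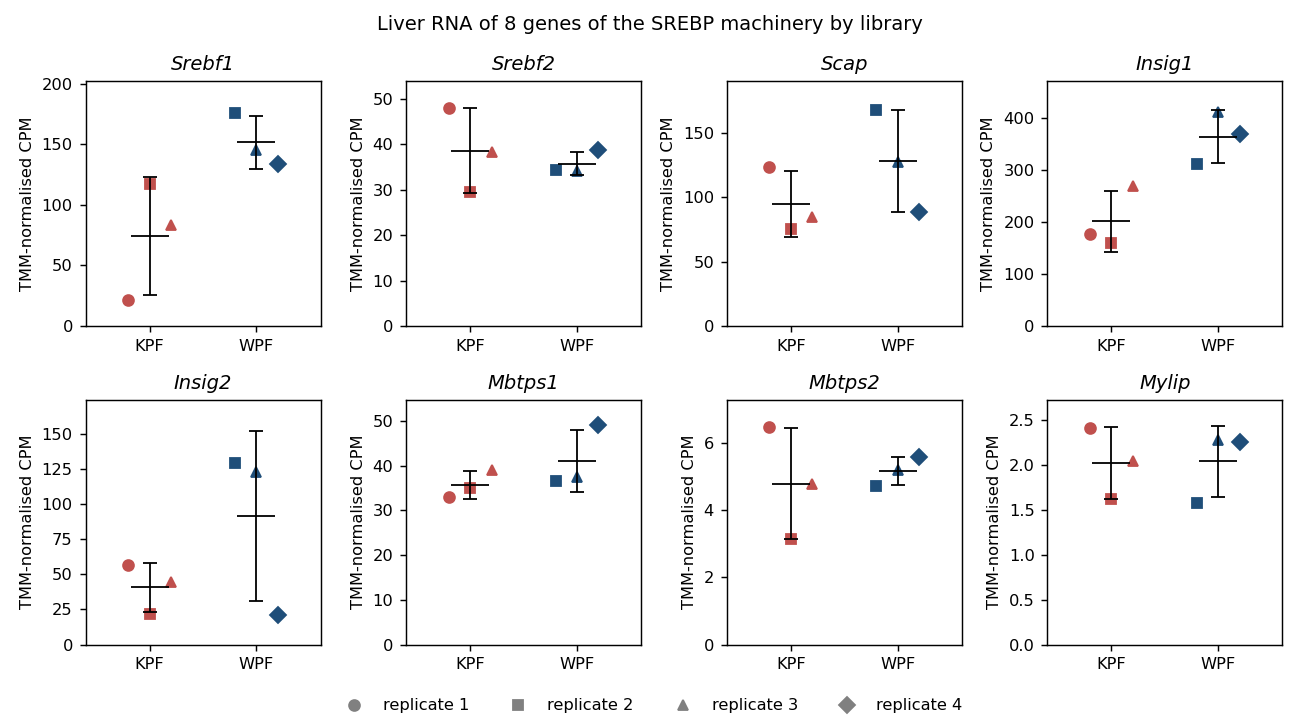
Normalised level (TMM-normalised CPM, vertical axes from 0) of the 8 genes in 3 KPF and 3 WPF libraries. Each symbol is a library, its shape gives the replicate number, and the line and bars give mean and SD. *Insig1* and *Srebf1* do not overlap between the groups, and in *Insig2* WPF replicate 4 lies apart from the other WPF libraries at 21.4 CPM.

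The levels per length ordered the genes from *Insig1*, with a mean of 92.2 FPKM over the 6 libraries, to *Mbtps2*, with 0.490 FPKM. *Insig1* was above the next gene in each of the 6 libraries. *Srebf1* (20.0 FPKM), *Insig2* (18.5 FPKM) and *Scap* (14.7 FPKM) followed, and the ranges of neighbours among these 3 overlapped within KPF and within WPF. *Srebf2* (5.13 FPKM) and *Mbtps1* (3.63 FPKM) came next, and *Srebf2* was above *Mbtps1* in each library although their ranges overlapped within WPF. *Mylip* (0.627 FPKM) and *Mbtps2* (0.490 FPKM) were below the minimum for testing, and their ranges overlapped although *Mylip* was above *Mbtps2* in each library.

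*Srebf1*, the gene of SREBP-1, measured 21.7, 117 and 83.7 CPM in KPF, against 176, 145 and 134 CPM in WPF. All KPF libraries were below all WPF libraries (exact two-sided permutation test, p = 0.1, the smallest that 3 against 3 can give), and KPF replicate 1 was far below the others of its group. KPF averaged 74.2 ± 48.5 CPM and WPF 152 ± 22 CPM (SD, n = 3 each). In edgeR's test the KPF to WPF difference was -1.03 ± 0.54 (log2 ± standard error, adjusted p = 0.517). The call depended on the library left out and on the tool. Without KPF replicate 2, which carried the muscle reads, the log2 fold change was -1.54 and the gene was called, and without KPF replicate 1 it was -0.60 and not called. *Srebf1* passed both limits under 5 of 15 alternatives, and its adjusted p lay between 0.318 and 0.823 over them (edgeR, DESeq2 or limma).

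The gene with the pattern most like that of *Srebf1* over the 6 libraries was *Mlxipl*. The likeness was measured as the root mean square difference of log2(CPM + 1) after each gene was centred on its own mean, and was 0.311 for *Mlxipl*, against 0.987 for *Srebf1* compared with a flat line. *Ndufa1*, a subunit of respiratory complex I, followed with 0.318 and *Fn3k*, a kinase of glycated proteins, with 0.361. In KPF replicate 1, *Srebf1* stood at -2.14 and *Mlxipl* at -2.10 on the log2 scale from the mean of the other KPF libraries. With 6 libraries and 10866 genes such a ranking is a description only.

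*Srebf2*, the gene of SREBP-2, gave 48.1, 29.4 and 38.4 CPM in KPF, compared with 34.3, 34.2 and 38.7 CPM in WPF. The groups overlapped, and the WPF libraries lay within the range of the KPF libraries. In edgeR's test the KPF to WPF difference was 0.11 ± 0.23 (log2 ± standard error, adjusted p = 0.870), and its sign turned, to -0.029, when library totals replaced TMM and, to -0.077, without KPF replicate 1. The genes with the nearest patterns were *Cdc42se1* at 0.040, *Gna11* at 0.058 and the pseudogene *Rpl30-ps1* at 0.065, against 0.212 for *Srebf2* compared with a flat line. The reads of a pseudogene may be shared with its parent gene.

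*Scap*, the escort of the SREBPs, measured 124, 75.6 and 84.8 CPM in KPF, against 168, 128 and 88.6 CPM in WPF. KPF replicate 1 lay above WPF replicate 4, so that the groups overlapped. In edgeR's test the KPF to WPF difference was -0.44 ± 0.32 (log2 ± standard error, adjusted p = 0.639), and leaving out any 1 of the 6 libraries did not make it a called gene.

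*Insig1*, an ER anchor of SCAP whose gene SREBPs induce, gave 177, 159 and 269 CPM in KPF, compared with 312, 412 and 369 CPM in WPF. The groups did not overlap (p = 0.1, exact two-sided permutation test), and the nearest libraries were KPF replicate 3 and WPF replicate 2. KPF averaged 202 ± 58.9 CPM and WPF 364 ± 50.5 CPM (SD, n = 3 each). In edgeR's test the KPF to WPF difference was -0.85 ± 0.29 (log2 ± standard error, adjusted p = 0.430). It stayed lower in KPF under all 15 alternatives, between -1.12 and -0.72, and met both limits of the call under 11 of them. It lost the call without KPF replicate 1 (-0.77), without KPF replicate 2 (-0.72) and without WPF replicate 3 (-0.76). Its adjusted p lay between 0.136, with DESeq2, and 0.823 over the alternatives. The nearest patterns were those of *Clint1*, a clathrin adaptor, at 0.066, *Ptprf*, a receptor tyrosine phosphatase, at 0.094 and *Sept9*, a septin, at 0.108, against 0.510 for *Insig1* compared with a flat line.

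*Insig2*, the other anchor of SCAP, measured 56.4, 21.8 and 44.2 CPM in KPF, against 130, 123 and 21.4 CPM in WPF. WPF replicates 2 and 3 were above every KPF library, and WPF replicate 4 was below every KPF library. In edgeR's test the KPF to WPF difference was -1.16 ± 0.65 (log2 ± standard error, adjusted p = 0.547). Without WPF replicate 4 it was -1.64 and the gene was called, whereas without any other library it was not called, with -0.82 without WPF replicate 2. It was also called with no filter on low genes, at -1.23. WPF replicate 4 stood at -2.51 on the log2 scale from the mean of the other WPF libraries in *Insig2*, at -0.72 in *Scap*, at -0.26 in *Srebf1* and at 0.04 in *Insig1*. The nearest patterns were those of *Tjp3*, a tight junction protein, at 0.155, *Ccdc69* at 0.276 and *Elovl5*, a fatty acid elongase, at 0.326, against 1.02 for *Insig2* compared with a flat line. *Elovl5* gave 200, 49.4 and 126 CPM in KPF, compared with 424, 525 and 92.0 CPM in WPF, with WPF replicate 4 inside the range of KPF.

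**Figure D2:**
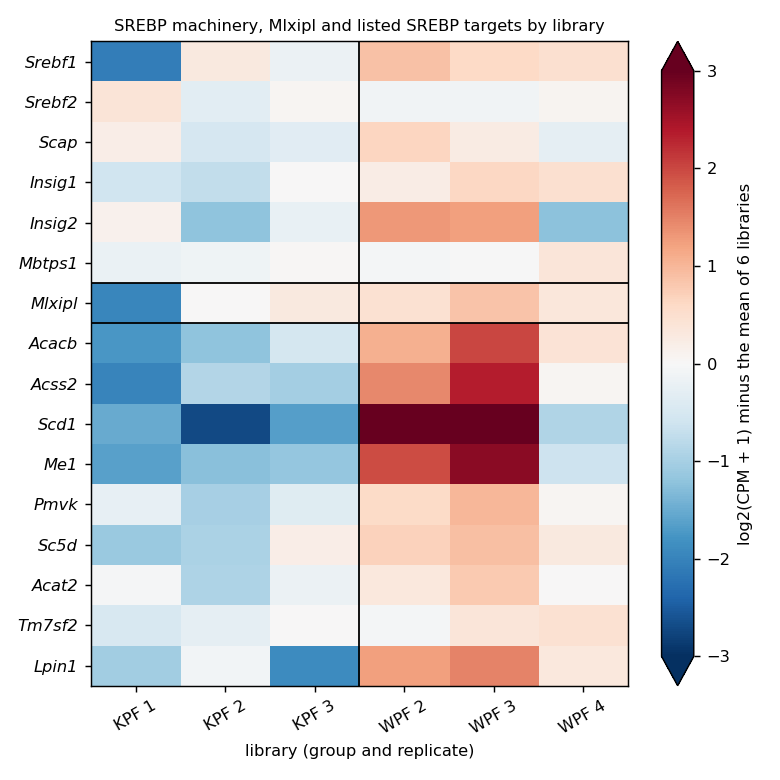
Log2(CPM + 1) in the 6 libraries, each row centred on its own mean, with colours that saturate at 3. Rows are the tested genes of the machinery, *Mlxipl*, the 4 genes with the smallest p of each SREBP target list, and *Lpin1*. The target genes drawn are thus a selection, and of the 20 tested cholesterol synthesis genes 5 were higher and 15 lower in KPF. *Srebf1* shares its low value in KPF replicate 1 with *Mlxipl*, and *Insig2*, *Scd1* and *Me1* are lower in WPF replicate 4 than in the other WPF libraries.

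The proteases and *Mylip* had means close to each other in the groups. *Mbtps1*, the site-1 protease that makes the first cut, measured 32.9, 34.9 and 39.1 CPM in KPF, against 36.4, 37.5 and 49.0 CPM in WPF, with overlap of the groups and a difference of -0.20 ± 0.20 in edgeR's test (log2 ± standard error, adjusted p = 0.735). *Mbtps2*, the site-2 protease that cuts within the membrane, had 35 to 94 reads per library and gave 6.46, 3.14 and 4.77 CPM in KPF, compared with 4.73, 5.20 and 5.58 CPM in WPF. *Mylip* had 18 to 38 reads per library and measured 2.41, 1.61 and 2.05 CPM in KPF, against 1.58, 2.28 and 2.26 CPM in WPF. The groups overlapped for both, and the log2 fold changes of -0.11 ± 0.34 and -0.01 ± 0.38 (standard error) were smaller than their errors at this depth. Their signs turned when single libraries were left out, to 0.11 for *Mbtps2* without KPF replicate 2 and to 0.12 for *Mylip* without the same library.

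**Figure D3:**
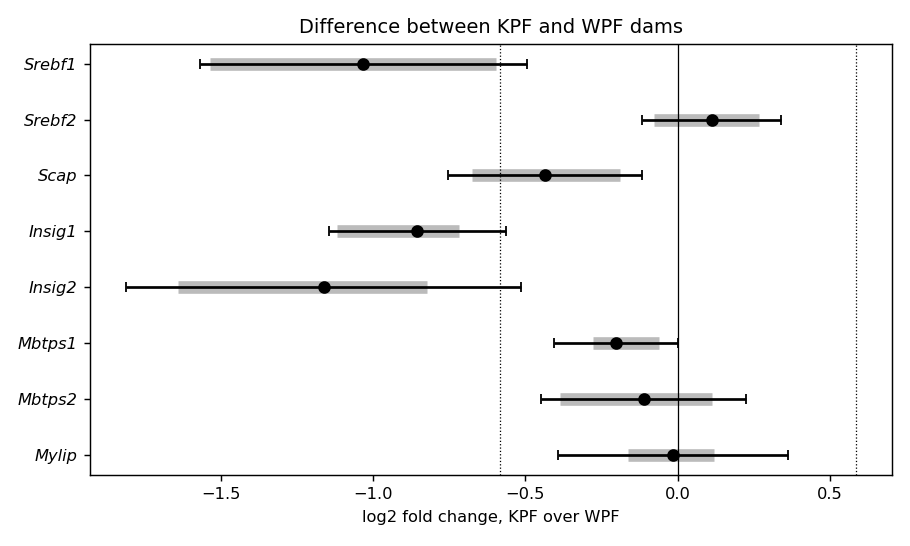
Log2 fold change of KPF over WPF for the 8 genes (points) with the standard error of edgeR's fit (bars). Grey bands give the range when each library is left out in turn, and dotted lines the 1.5-fold limits. The points of *Srebf1*, *Insig1* and *Insig2* lie beyond the lower limit at -1.03, -0.85 and -1.16, and the bands of *Srebf2*, *Mbtps2* and *Mylip* include 0.

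Ratios between these genes within a library do not depend on the scaling between libraries, and 3 were compared between the groups on the counts per base of exon. *Insig1* RNA exceeded *Insig2* RNA 3.52-fold, 8.21-fold and 6.83-fold in KPF replicates 1, 2 and 3 and 2.70-fold, 3.76-fold and 19.4-fold in WPF replicates 2, 3 and 4. The extremes of all 6 libraries were thus both in WPF. The mean log2 ratio was 2.54 ± 0.64 in KPF and 2.54 ± 1.52 in WPF (SD, n = 3 each, exact two-sided permutation test, p = 1.0, adjusted p = 1.0 over 3 ratios), and the difference was 0.36 without KPF replicate 1 and 0.87 without WPF replicate 4. *Srebf1* stood to *Srebf2* as 0.576, 5.08 and 2.78 in KPF and as 6.54, 5.43 and 4.40 in WPF. KPF replicate 1 was the only library in which *Srebf2* was the more abundant per base, and KPF replicate 2 lay within the range of WPF. The difference of the mean log2 ratios was -1.42 (exact two-sided permutation test, p = 0.2, adjusted p = 0.3), and it was -0.52 without KPF replicate 1. The summed *Insig1* and *Insig2* RNA exceeded *Scap* RNA 4.41-fold, 5.69-fold and 8.75-fold in KPF and 6.11-fold, 9.83-fold and 10.5-fold in WPF, a difference of -0.51 in the mean log2 ratio (exact two-sided permutation test, p = 0.2, adjusted p = 0.3). The ranges of the groups overlapped in all 3 ratios.

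**Figure D4:**
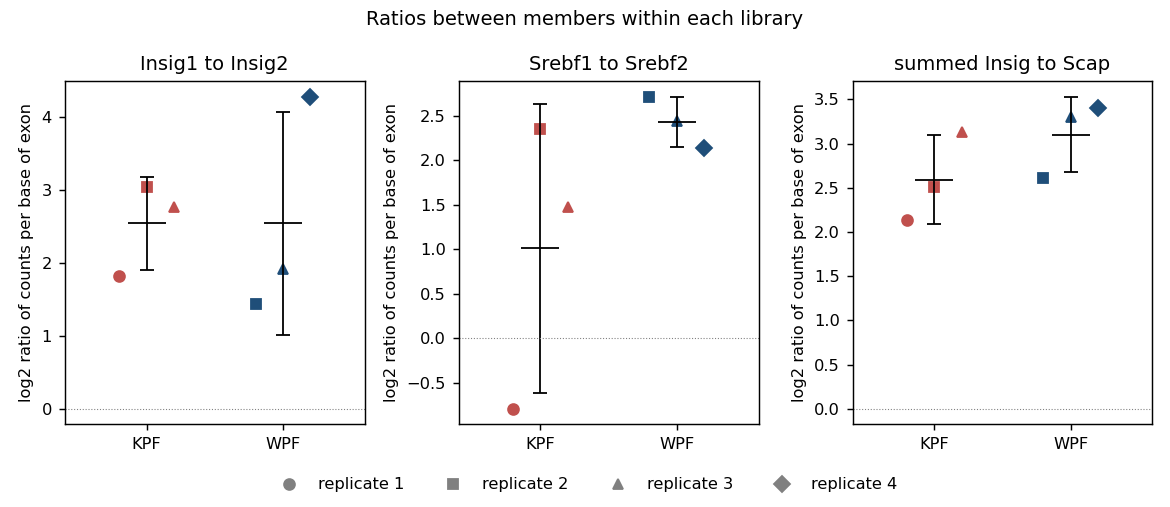
Log2 ratios of counts per base of exon within each library for *Insig1* to *Insig2*, *Srebf1* to *Srebf2* and summed *Insig* to *Scap*, with mean and SD of each group. WPF replicate 4 has the highest *Insig1* to *Insig2* ratio, and KPF replicate 1 is the only library below 0 for *Srebf1* to *Srebf2*.

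Target genes of the fatty acid branch had a lower median in KPF than those of the cholesterol branch, and the difference between the lists was not tested. Of the 16 listed SREBP-1 type genes of fatty acid synthesis, all of which were tested, 11 were called lower in KPF, against 3.98% of all tested genes, and 0 higher. The median log2 fold change was -2.33. Several of these genes are known ChREBP targets as well. The count lay between 10 and 13 over the 15 alternatives, and the median was -1.69 without WPF replicate 3 and -2.71 without WPF replicate 4. *Acacb*, the mitochondrial acetyl-CoA carboxylase, measured 29.1, 43.0 and 69.5 CPM in KPF, against 213, 405 and 135 CPM in WPF, at a log2 fold change of -2.41. *Acss2*, an acetyl-CoA synthetase, had -2.80, *Me1*, the malic enzyme that supplies NADPH, had -3.35, and *Scd1*, the stearoyl-CoA desaturase, had -4.74. *Scd1* gave 226, 97.6 and 205 CPM in KPF, compared with 5757, 7999 and 349 CPM in WPF, and its WPF replicate 4 lay closer to the KPF libraries than to WPF replicates 2 and 3, as for *Insig2*. Adjusted p of these 4 genes was 0.414 in edgeR's test. The median of the list in WPF replicate 4 was -2.0 on the log2 scale from the other WPF libraries, whereas *Srebf1* itself was at -0.26 there.

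Of the 20 listed SREBP-2 type genes of cholesterol synthesis, 3 were called lower in KPF, against 3.98% of all tested genes, and 0 higher, with a median log2 fold change of -0.34. The 3 were *Pmvk*, phosphomevalonate kinase (-1.15), *Sc5d*, a sterol desaturase (-1.16), and *Acat2*, which makes acetoacetyl-CoA in the cytosol (-0.75), and *Tm7sf2*, a sterol reductase, had -0.50. The adjusted p of these 4 lay between 0.430 and 0.491 in edgeR's test. In KPF replicate 2 the median of the list was -1.02 from the other KPF libraries, and *Srebf2* was at -0.53 there. Without that library the median log2 fold change was -0.11, with 1 gene, *Pmvk*, called lower and 1, *Mvk*, called higher. The number called lower was 1 without WPF replicate 3, 2 without WPF replicate 2 and 5 with no filter on low genes, and *Msmo1* was called higher without WPF replicate 4.

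In WPF replicate 4 a set of genes stood at or below the highest KPF library while WPF replicates 2 and 3 stood above all KPF libraries. This held for 2 of the 6 tested genes of the machinery, *Insig2* and *Scap*, for 4 of the 16 fatty acid synthesis genes (*Elovl5*, *Elovl6*, *Thrsp* and *Mid1ip1*), for 2 of the 20 cholesterol synthesis genes and for 7.68% of all 10866 tested genes. The definition was made after the values of *Insig2* had been seen.

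The partners of the machinery had medians nearer to 0. The counts called lower in this list and in those that follow stand beside 3.98% of all tested genes. Of 12 tested genes of a list of partners in ER retention and degradation, 1 was called lower and 0 higher, with a median log2 fold change of -0.09. The called gene was *Rnf145*, a ubiquitin ligase of the ER, with 15.6, 15.3 and 15.8 CPM in KPF against 24.4, 18.6 and 34.7 CPM in WPF (-0.73), and it was not called without WPF replicate 4. In this list 1 gene was called higher without KPF replicate 2 (*Hsp90b1*), KPF replicate 3 (*Aup1*) or WPF replicate 4 (*Erlin1*). With all libraries *Aup1*, *Hsp90b1* and *Vcp* had 0.58, 0.61 and -0.26. Of 14 tested genes of the COPII coat and its cargo receptors, 1 was called lower, with a median of 0.06. This was *Sar1b*, a GTPase that starts the coat, with 48.5, 50.6 and 62.3 CPM in KPF against 103, 89.4 and 65.7 CPM in WPF (-0.68). No gene of this list was called lower without KPF replicate 1 or 2 or without WPF replicate 2 or 3, and 3 were without KPF replicate 3. Its paralog *Sar1a* measured 72.2, 61.5 and 59.9 CPM in KPF, against 52.0, 51.6 and 59.3 CPM in WPF (0.25, not called), and *Surf4* and *Sec24d* had -0.53 and -0.69.

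Of 15 tested nuclear cofactors and turnover factors of SREBPs, 2 were called lower, with a median of -0.08. *Lpin1*, a phosphatidate phosphatase that also acts on nuclear SREBP downstream of mTORC1, gave 11.5, 23.3 and 6.04 CPM in KPF, compared with 59.4, 71.3 and 31.1 CPM in WPF (-1.98, adjusted p = 0.430 in edgeR's test). The number called lower was 1 without KPF replicate 1, without WPF replicate 3 or without WPF replicate 4. *Sirt1*, a deacetylase, had -0.71, and *Med15*, a Mediator subunit, and *Nfya*, a subunit of NF-Y, had -0.35 and 0.46 and were not called, although *Nfya* was called higher without KPF replicate 2. Of 6 tested other substrates of the site proteases 0 were called, with a median of -0.19, and *Atf6b*, *Creb3l3*, *Atf6* and *Gnptab* had 0.43, 0.73, -0.34 and -0.32. *Creb3l3* was called higher without WPF replicate 4.

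Both *Mylip* and *Srebf1* are known as LXR targets, and whether LXRs act on *Mylip* in these livers was not tested. Of 13 tested genes of the LXRs and their targets, 4 were called lower and 0 higher, with a median of -0.08, namely *Scd1*, which is also in the fatty acid list, *Lpcat3*, a phospholipid acyltransferase (-0.92), *Pltp*, the phospholipid transfer protein (-1.02), and *Smpdl3a*, a phosphodiesterase (-0.77). Without KPF replicate 2 the number called lower was 5, with *Abcg8* and *Nr0b2* added and *Smpdl3a* lost, and 1 gene was called higher without KPF replicate 3 (*Nr1h3*) or WPF replicate 4 (*Cyp7a1*). *Lpcat3* measured 38.4, 52.1 and 44.2 CPM in KPF, against 102, 82.7 and 70.0 CPM in WPF, without overlap of the groups, while *Mylip* had nearly equal means of 2.02 ± 0.40 and 2.04 ± 0.40 CPM (SD, n = 3 each). Of 10 tested relatives of the LDL receptor, their adaptors and partners of MYLIP, 0 were called, with a median of -0.10. *Lrpap1*, a chaperone of these receptors, had -0.37, *Lrp1* had -0.48, *Vldlr*, a known substrate of MYLIP, had -0.67 at 4.34 to 20.4 CPM, and *Ube2d3*, a ubiquitin-conjugating enzyme, had -0.28. *Vldlr* was called lower without KPF replicate 2, and 1 gene was called higher without WPF replicate 4 (*Usp2*) or with no filter on low genes (*Lrp2*).

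**Figure D5:**
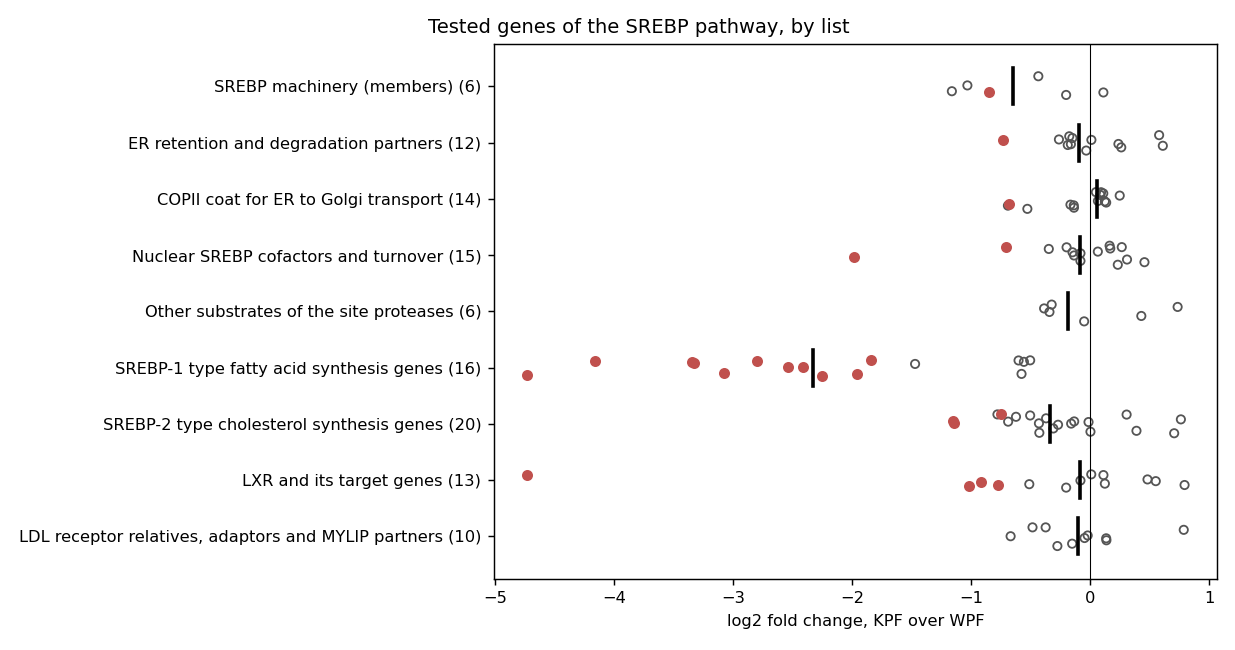
Log2 fold change of KPF over WPF for every tested gene of the SREBP machinery and of 8 related lists, with the number tested in parentheses. Filled points are called genes, open points are not, and vertical bars are medians. The SREBP-1 type list lies furthest to the left with a median of -2.33, and the other medians lie between -0.65 and 0.06.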

How the data were processed

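Liver poly(A) RNA of 3 KPF and 3 WPF dams was sequenced as paired reads. The table deposited by the authors holds unnormalised counts for each gene and FPKM values, which recompute within 0.005 from the counts, the exon lengths and the count totals. The submitters' processing notes name cutadapt 1.9.1, HISAT2 2.2.1, HTSeq 0.6.1, DESeq2 and GRCm39. The library kit is not stated to mark strand. Symbols were available for 52073 of 56691 IDs, and promoters came from RefSeq on GRCm38.p6, and no coordinates were carried between builds.

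The counts were tested with edgeR 4.0.16 in R 4.3.3 (TMM, quasi-likelihood test, adjustment by Benjamini-Hochberg over all 10866 genes whose mean reached 1 FPKM), after a test on simulated data. Listed genes below the minimum were fitted too and have no adjusted p. Replicates are separate samples by the labels, so that p-values measure the spread between these samples. No libraries of a group agreed within sampling noise (chi-square per gene 35.5 or more). Counts of 18 to 38 reads, as for *Mylip*, limit precision. The members and lists were chosen with earlier results of these data known. The genes named were the 8 members, *Mlxipl*, the 4 genes of each list with the smallest p and, for *Srebf1*, *Srebf2*, *Insig1* and *Insig2*, the 3 genes nearest in pattern. *Elovl6*, *Thrsp*, *Mid1ip1*, *Lep*, *Rai1*, *Gm37174*, marker genes and genes called only under an alternative were named after their values were seen. The alternatives were other scalings, filters and tests (DESeq2 1.42.0, limma 3.58.1), the replicate number as a block and leaving out each library. The block compares the groups only within the replicate numbers that both groups hold.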

Additional observations from a re-analysis of the deposited data

How the results depend on the processing

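*Srebf1*, *Scap*, *Insig1*, *Insig2* and *Mbtps1* stayed lower in KPF under all 15 alternatives, with log2 fold changes from -1.54 to -0.60, -0.87 to -0.19, -1.12 to -0.72, -2.02 to -0.82 and -0.36 to -0.0014. For the changes that follow, the cause was not tested, but the replicate block by design compares fewer libraries. Library totals instead of TMM factors gave 370 genes called higher and 716 lower (34.1% of calls higher, against 59.5% with TMM, as the median of all genes went from 0.02 to -0.12), *Srebf2* stood at -0.029, and the medians of the nuclear cofactors and of the LDL receptor relatives both at -0.22. DESeq2 put 156 genes past an adjusted p of 0.05, and *Srebf1* was called at -1.03. On log2(FPKM + 1), limma called 239 genes higher, *Srebf1* was called at -1.34, *Srebf2* stood at -0.031, and the LXR list at -0.41 and the LDL receptor relatives at -0.17. On log2(FPKM + 0.1), limma called 285 genes higher and 693 lower, *Srebf1* was called at -1.45, *Srebf2* stood at -0.038, the nuclear cofactors at -0.20, the LXR list at -0.47 and the LDL receptor relatives at -0.22. Of calls, 30.8% and 29.1% were higher with limma. Without a filter, 1576 genes were called higher, 910 lower and 286 had an adjusted p under 0.05, and *Srebf1* and *Insig2* were called at -1.10 and -1.23. With a minimum mean of 5 FPKM, which leaves fewer genes, 255 were called higher and 205 lower, and the medians were 0.24 for the ER partners, 0.17 for the nuclear cofactors, 0.43 for the protease substrates and -0.27 for the LDL receptor relatives.

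Replicate numbers 2 and 3 occur in both groups but stand for different dams. The deviations of same-numbered libraries correlated at 0.035 for number 2 and at -7.72e-06 for number 3. These values gave no sign of pairing, but each rests on 1 pair of libraries and does not settle the question. The remaining replicate number of each group occurs in that group only, so a block on the number takes up that library. The difference between the groups then rests on the libraries numbered 2 and 3. With the replicate block, *Scap* and *Insig2* were called at -0.87 and -2.02, *Insig1* was not called at -0.79, *Srebf2* stood at -0.028, the nuclear cofactors at 0.025, the protease substrates at 0.16, and the log2 ratio of *Insig1* to *Insig2* differed by 1.23 in place of -0.00. In the cholesterol list 7 of 20 genes were then called lower and 1 higher, and 1 gene each was called higher among the protease substrates, the LXR genes and the LDL receptor relatives. Under this block 1240 of all 10866 tested genes had an unadjusted p under 0.05 in edgeR's test, before the 1.5-fold limit. Of all calls under it 55.2% were higher in KPF.

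Leaving out each library in turn gave 324 to 909 genes called higher, 246 to 711 lower and 0 to 5 with an adjusted p under 0.05. The log2 fold changes ranged from -1.54 to -0.60 for *Srebf1*, -0.077 to 0.27 for *Srebf2*, -1.12 to -0.72 for *Insig1*, -1.64 to -0.82 for *Insig2*, -0.39 to 0.11 for *Mbtps2* and -0.16 to 0.12 for *Mylip*. The medians ranged from -2.71 to -1.69 for the fatty acid list, -0.48 to -0.11 for the cholesterol list, -0.14 to 0.11 for the nuclear cofactors, -0.25 to 0.22 for the protease substrates, -0.62 to 0.13 for the LXR list and -0.21 to -0.11 for the LDL receptor relatives. The difference in the log2 ratio of *Insig1* to *Insig2* ranged from -0.55 to 0.87.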
